A study of Homo sapiens with 6 samples.

Results

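The genes described here were CD55 and 8 other regulators and components of the complement system, measured by RNA-seq in HCT116 cells with and without knockdown of GDPD5. They were chosen by name. The Ensembl identifiers of CD55, CD46, CD59, CLU, CFI, CFB, C3, C1R and C1S were looked up in the count table, and all 9 were found among its 79302 rows. HCT116 is an established human colorectal cancer cell line. Of the 6 libraries, 3 carried a control shRNA (shCtrl, genotype control) and 3 an shRNA against GDPD5 (shGDPD5, genotype KD), a glycerophosphodiester phosphodiesterase gene. The labels give no other treatment, but the study's text describes both groups as radioresistant HCT116 cells collected 6 h after 4 Gy of irradiation, so that resistance and irradiation were common to both groups and no unirradiated or parental library was compared. The sources used here do not say which shRNA sequence the knockdown libraries carried, nor whether replicates were grown as separate cultures. The p-values below therefore measure the spread between these libraries, which may be technical.

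Complement is a cascade of plasma and tissue proteins that tags and lyses target cells. C1R and C1S are the serine proteases of the C1 complex that start the classical pathway, CFB (factor B) supplies the catalytic subunit of the alternative pathway convertase, and C3 is the protein on which all pathways meet. Host cells protect themselves with membrane regulators, among which CD55 (decay-accelerating factor) breaks up C3 and C5 convertases, CD46 (membrane cofactor protein) serves as a cofactor for cleavage of C3b and C4b by the protease factor I (CFI), and CD59 blocks assembly of the membrane attack complex. CLU (clusterin) is a secreted chaperone that also binds terminal complement complexes. CD55 and CD59 are held in the membrane by a glycosylphosphatidylinositol (GPI) anchor, whereas CD46 crosses the membrane. The study places CD55 between GDPD5 and the receptor EGFR, on evidence from protein binding and the location of EGFR in cells. It also knocked down CD55 together with GDPD5, in cells and in xenograft tumours. In stained patient tissue it reports low GDPD5 and high CD55 protein where radiotherapy worked well. Transcript levels measure none of these, so the comparison below describes the CD55 transcript and does not test that placement.

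The sequences of 4 promoters are given, those of the 3 membrane regulators and of CFB, a low-count component. After scaling for depth, these genes were lower in every shGDPD5 library, and 64.9% of all tested genes did not overlap between the groups. CD59 among them did not pass an adjusted p of 0.05. Each sequence is the 250 bases before a RefSeq transcript start on GRCh38.p14, printed 5′ to 3′ on the strand of the gene. Capitals mark matches, on either strand, to 7 short motifs.
CD55, chr1:207321428-207321677, plus strand: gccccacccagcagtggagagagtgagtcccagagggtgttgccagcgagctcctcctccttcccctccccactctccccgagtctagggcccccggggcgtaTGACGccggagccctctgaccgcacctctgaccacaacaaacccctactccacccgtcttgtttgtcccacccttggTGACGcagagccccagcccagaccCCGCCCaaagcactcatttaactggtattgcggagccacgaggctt
CD46, chr1:207751788-207752037, plus strand: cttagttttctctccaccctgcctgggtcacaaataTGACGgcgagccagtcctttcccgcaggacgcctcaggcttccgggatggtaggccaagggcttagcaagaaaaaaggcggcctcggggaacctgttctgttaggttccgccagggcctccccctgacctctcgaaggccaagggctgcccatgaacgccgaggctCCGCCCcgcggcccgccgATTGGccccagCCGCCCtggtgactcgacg
CD59, chr11:33736424-33736673, minus strand: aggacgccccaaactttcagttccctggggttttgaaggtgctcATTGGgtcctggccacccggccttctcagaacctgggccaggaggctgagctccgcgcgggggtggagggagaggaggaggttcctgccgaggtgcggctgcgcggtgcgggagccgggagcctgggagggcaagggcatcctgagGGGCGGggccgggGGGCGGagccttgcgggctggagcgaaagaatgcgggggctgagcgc
CFB, chr6:31945845-31946094, plus strand: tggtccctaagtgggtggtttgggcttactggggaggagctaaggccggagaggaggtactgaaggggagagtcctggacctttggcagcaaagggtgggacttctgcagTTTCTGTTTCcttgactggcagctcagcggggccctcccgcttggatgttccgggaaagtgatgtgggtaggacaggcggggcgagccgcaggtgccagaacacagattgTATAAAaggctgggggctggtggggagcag

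The motifs searched were an SP1 box (GGGCGG, in 42.6% of 34788 distinct promoter windows of the same length), the TGACG motif, which is part of a cyclic AMP response element (21.2%), an AP-1 site (TGANTCA, 6.59%), a CCAAT box (CCAAT, 32.0%), an ISRE core (TTTC, any pair of bases and TTTC again, 3.02%), a TATA box (TATAAA, 10.8%) and an NF-kB site (5.21%). The CD55 window held 1 SP1 box and 2 TGACG motifs. That of CD46, 1 of 2 starts in RefSeq, held 2 SP1 boxes, 1 TGACG motif and 1 CCAAT box. In the CD59 window, 1 of 4 starts that RefSeq lists for the gene, there were 2 SP1 boxes and 1 CCAAT box. The other CD59 windows held no SP1 box, and 1 of them held 2 AP-1 sites. The CFB window held 1 ISRE core and 1 TATA box, and no SP1 box. These windows had a GC content of 64.0% for CD55, 64.8% for CD46, 70.4% for CD59 and 60.0% for CFB, with a median of 58.0% over all windows. A match shows only that these letters are present.

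Total counts were 16715447 to 18510670 per library, and 16755 genes passed the filter on low counts. GDPD5 itself had 143, 206 and 169 counts in shCtrl and 93, 104 and 92 in shGDPD5, which is 54.5% of the control level in CPM (counts scaled to a common library size). Its log2 fold change was −0.88 (SE 0.13, n = 3 per group, edgeR adjusted p = 0.000116), and no shGDPD5 library reached the lowest shCtrl library. Of the epithelial markers, 6 of 8 passed the filter, and VIL1 and LGALS4, with 0 to 10 and 1 to 3 counts per library, did not, despite the colorectal label. Their summed level was 3172 to 3612 CPM in shCtrl and 2526 to 2634 CPM in shGDPD5. Markers of leukocytes and of endothelium summed to less than 1 CPM in every library, with CD163 and CDH5 at 0. Fibroblast markers summed to 18.8 to 21.3 CPM in shCtrl and 20.3 to 23.5 CPM in shGDPD5, nearly all of it COL1A1, with COL1A2 and DCN at 0. Hepatocyte markers, checked because the liver is the main source of complement, summed to 6.86 to 8.86 CPM in shCtrl and 0.801 to 1.52 CPM in shGDPD5, nearly all of it SERPINA1, with TTR at 0. The share of counts from mitochondrial genes was 10.9% to 11.4% in shCtrl and 12.2% to 12.9% in shGDPD5. The part of these differences in the results was not tested, and in bulk RNA fewer cells of a type and less RNA per cell cannot be told apart. Control replicate 1 stood apart from the other controls, as the chi-square divided by its degrees of freedom was 6.25 and 7.28 against replicates 2 and 3 and 1.65 between those 2. In shGDPD5 the same quantity was 3.38 and 2.99 for replicate 2 against replicates 1 and 3, and 1.68 between those 2. Values without control replicate 1 are given for the 9 genes and the related lists where a call or a count of calls differs.

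The 9 genes fell into a group of 4 with at least 100 counts in every library (CD55, CD46, CD59 and CLU) and a group of 5 with at most 50 (CFI, CFB, C3, C1R and C1S). Of the 8 genes tested, CD55, CD46 and CFB fell, CLU and C1R rose, and CD59, C3 and C1S did not pass an adjusted p of 0.05 in edgeR's quasi-likelihood test. This made 62.5% of the tested genes called, beside 59.7% of all 16755 genes tested (30.1% lower and 29.7% higher), so the share of called genes was near the background. The median log2 fold change was −0.28 over the 8 genes and 0.0098 over all tested genes. With edgeR p-values, CD55 and CFB were lower and CLU was higher at thresholds that the study states. These are p under 0.05 before adjustment, and a log2 fold change of 1 or more in either direction. There 6.6% of all tested genes were lower and 5.38% higher. The study's methods also give a fold-change threshold that is less strict for higher genes, with a t test, which was not applied here. The 2 groups of libraries did not overlap for 6 of the 8 (CD55, CD46, CD59, CLU, CFB and C1R), beside 64.9% of all tested genes. CFB and C3 passed the filter through the control libraries, since 3 control libraries and 1 shGDPD5 library exceeded its minimum for each gene, and CFI did not pass.

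**Figure D1:**
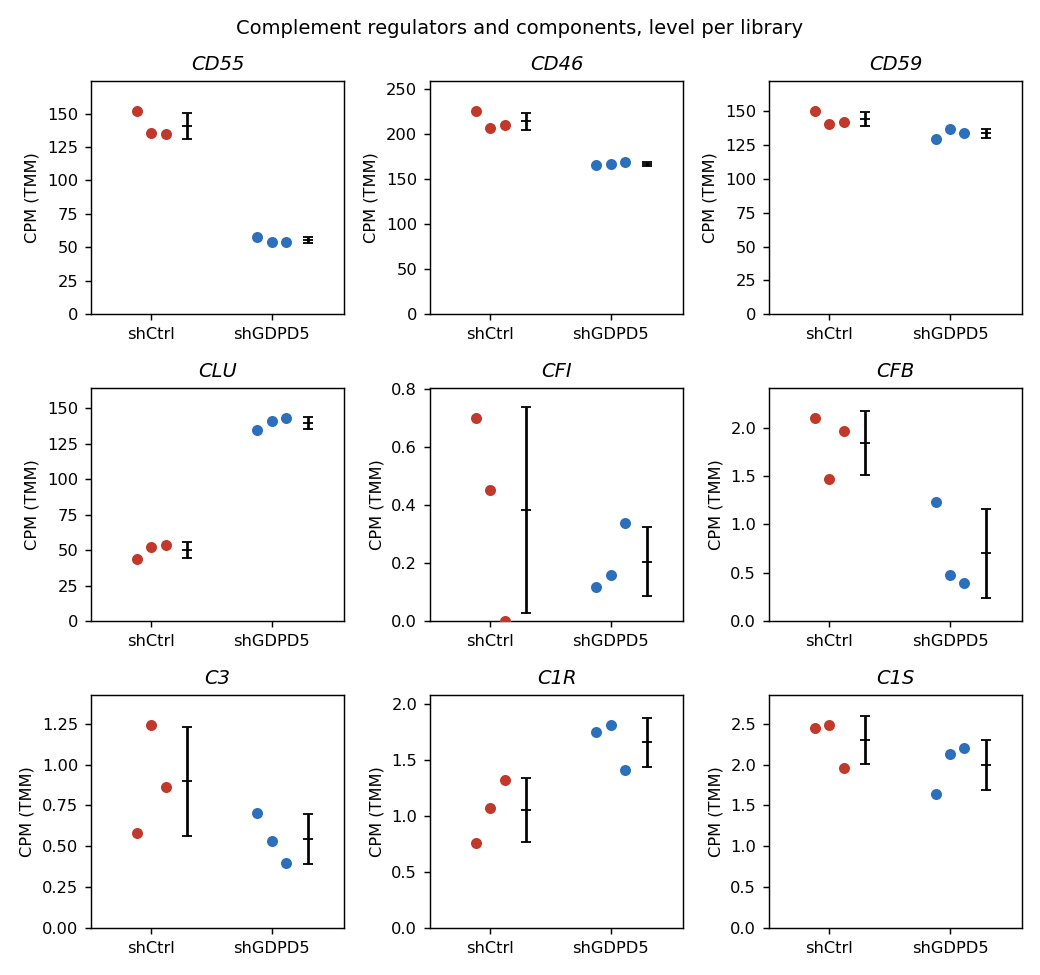
Level of each of the 9 genes in CPM with TMM scaling, with 1 point per library, shCtrl in red and shGDPD5 in blue, and black bars for the mean ± SD of 3 libraries. The axes start at 0 and differ between panels. CD55 lay between 134.4 and 151.6 CPM in shCtrl and between 54.1 and 58.0 CPM in shGDPD5, whereas CLU moved the other way, from at most 54.0 CPM to at least 134.8 CPM.

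Of the membrane regulators CD55 had the largest log2 fold change, and its transcript fell to 39.5% of the control level. The gene (ENSG00000196352) lies on the plus strand of chromosome 1 at 207321376 to 207386804 in GENCODE release 29 on GRCh38. It had 2603, 2400 and 2330 counts in shCtrl and 993, 1014 and 962 counts in shGDPD5. The shGDPD5 values lay close together, and the highest was far below the lowest control library. In CPM the means were 140.5 ± 9.64 in shCtrl and 55.5 ± 2.22 in shGDPD5 (SD, n = 3 each). The log2 fold change was −1.34 (SE 0.06, 95% interval −1.47 to −1.21, edgeR adjusted p = 2.24e-09), and 589 of the 16755 tested genes had a lower one. The control level of CD55 stood at the 92.6th percentile of tested genes. No exon of CD55 overlaps that of another gene in the annotation.

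CD46 also fell, by a smaller amount. The gene (ENSG00000117335, plus strand, chromosome 1 at 207752057 to 207795513) had 3867, 3661 and 3648 counts in shCtrl and 2831, 3121 and 3008 counts in shGDPD5. The lowest control library stood above the highest shGDPD5 library, and in CPM the gap was wider, from 206.6 in the lowest control to 169.6 in the highest shGDPD5 library. The means were 214.1 ± 9.82 CPM and 167.2 ± 2.17 CPM (SD, n = 3 each), which is 78.1% of control. Its log2 fold change was −0.36 (SE 0.05, 95% interval −0.46 to −0.25, edgeR adjusted p = 3.22e-05).

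CD59 did not pass the threshold. The gene (ENSG00000085063, minus strand, chromosome 11 at 33703010 to 33736491) had 2571, 2493 and 2459 counts in shCtrl and 2220, 2562 and 2377 counts in shGDPD5, so the counts of the groups overlapped. After scaling for depth they did not, with 149.7, 140.7 and 141.8 CPM in shCtrl and 129.7, 136.7 and 134.1 CPM in shGDPD5. The log2 fold change was −0.11 (SE 0.05, 95% interval −0.21 to −0.0063, edgeR adjusted p = 0.0636), an interval that leaves room for a decrease of up to 0.21 on the log2 scale. Without control replicate 1 the adjusted p was 0.0437, with a log2 fold change of −0.085. A neighbouring gene model, AL049629.2, shares 629 exon bases with CD59 on the same strand and had 4 to 10 counts, a small number beside those of CD59.

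The 95% intervals of CD55 and CD46 did not overlap. The membrane regulators were also compared as ratios of counts within each library, a scale that needs no normalization between libraries. The ratio of CD55 to CD46 counts was 0.656 ± 0.017 in shCtrl and 0.332 ± 0.017 in shGDPD5 (SD, n = 3 each). That of CD55 to CD59 was 0.974 ± 0.034 and 0.416 ± 0.028, and that of CD46 to CD59 was 1.49 ± 0.018 and 1.25 ± 0.031. None of the 3 ratios overlapped between the groups, and their log2 differences were −0.98, −1.23 and −0.25. The exact two-sided permutation p was 0.1 for each (0.1 after adjustment over the 3 ratios), which is the smallest that 3 libraries against 3 allow, so this test could not reach 0.05. Leaving out each library in turn moved the log2 difference of CD55 to CD46 only between −1.02 and −0.96.

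**Figure D2:**
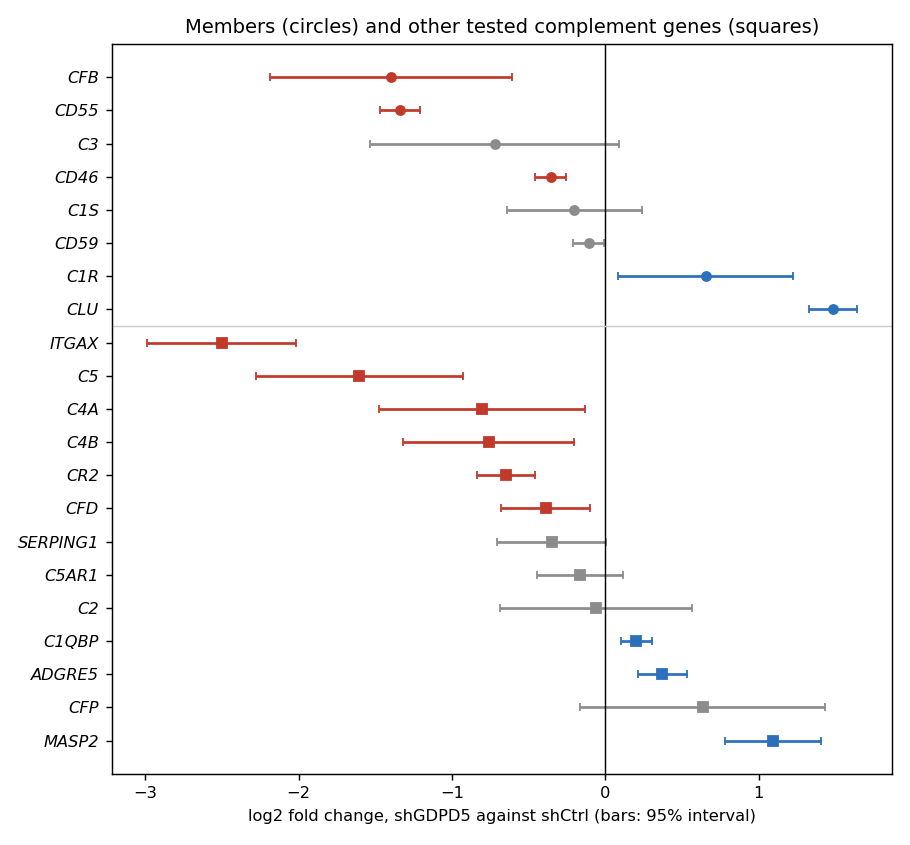
Log2 fold change of shGDPD5 against shCtrl with a 95% interval derived from edgeR's F statistic. Circles are the 8 tested genes and squares 13 other tested complement genes. Red marks genes that fell, blue genes that rose and grey genes that did not pass an adjusted p of 0.05. CD55 (−1.34) and CLU (1.48) had narrow intervals far from 0, while the intervals of CFB, C3 and C1R, which had at most 36 counts in any library, were several times wider.

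CLU was the gene of the 9 that rose most. It (ENSG00000120885, minus strand, chromosome 8 at 27596917 to 27615031) had 746, 925 and 936 counts in shCtrl and 2306, 2644 and 2535 counts in shGDPD5. Every shGDPD5 library was far above every control library, and control replicate 1 was the lowest of the 6. The mean level was 49.9 ± 5.64 CPM in shCtrl and 139.6 ± 4.30 CPM in shGDPD5 (SD, n = 3 each), a 2.80-fold increase on these means. The log2 fold change was 1.48 (SE 0.07, 95% interval 1.33 to 1.64, edgeR adjusted p = 4.21e-09), and 317 of the 16755 tested genes had a higher one.

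CFI, the protease that needs CD46 or another cofactor, was close to the detection limit. The gene (ENSG00000205403) had 12, 8 and 0 counts in shCtrl and 2, 3 and 6 counts in shGDPD5. The groups overlapped, and the control library at 0 (replicate 3) lay below every shGDPD5 library. A readthrough gene, AC126283.2, shares 1562 exon bases with CFI on the same strand and had 8 counts in that control library, 7 in shGDPD5 replicate 1 and 0 in the others. Counts of both genes together were 12, 8 and 8 in shCtrl and 9, 3 and 6 in shGDPD5, so the control library at 0 for CFI was not at 0 over both gene models. No difference in CFI was detectable at this depth.

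Of the components, CFB was the only one that fell. It (ENSG00000243649) had 36, 26 and 34 counts in shCtrl and 21, 9 and 7 counts in shGDPD5. All shGDPD5 libraries were below all control libraries, but shGDPD5 replicate 1 had more counts than the other two of its group together. The mean level was 1.84 ± 0.331 CPM in shCtrl and 0.701 ± 0.458 CPM in shGDPD5 (SD, n = 3 each). The log2 fold change was −1.40 (SE 0.36, 95% interval −2.19 to −0.61, edgeR adjusted p = 0.0051), and −2.05 without shGDPD5 replicate 1. The estimate for CFB was close to that for CD55, with a standard error several times larger. The neighbouring gene C2, the counterpart of CFB in the classical pathway, shares 23 exon bases with it and did not pass the test (log2 fold change −0.06, SE 0.29, edgeR adjusted p = 0.865). A readthrough gene over the same exons, AL645922.1, was at 0 counts in every library.

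C1R, which passed the threshold narrowly, had 13, 19 and 23 counts in shCtrl and 30, 34 and 25 counts in shGDPD5. The groups did not overlap, with 25 counts in the lowest shGDPD5 library and 23 in the highest control. The gene (ENSG00000159403) had a log2 fold change of 0.65 (SE 0.26, 95% interval 0.083 to 1.22, edgeR adjusted p = 0.0474). This call did not hold with DESeq2 (adjusted p = 0.175), and of the 6 fits that leave out 1 library it held only without control replicate 3 (adjusted p = 0.0318). Without control replicate 1 the log2 fold change of C1R was 0.46 (edgeR adjusted p = 0.156). C1RL, a paralog that shares 672 exon bases with C1R on the same strand, was far more abundant and fell, from 674, 742 and 725 counts in shCtrl to 396, 406 and 364 counts in shGDPD5 (log2 fold change −0.91, SE 0.07, edgeR adjusted p = 1.62e-07). The sources used here do not say how reads in the shared bases were assigned, so the C1R value is uncertain.

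C1S, the partner protease of C1R, had 42, 44 and 34 counts in shCtrl and 28, 40 and 39 counts in shGDPD5. The groups overlapped, and the log2 fold change of C1S (ENSG00000182326) was −0.20 (SE 0.20, 95% interval −0.64 to 0.24, edgeR adjusted p = 0.410). It shares 229 exon bases with EMG1, which had 811 to 854 counts in shCtrl and 1040 to 1150 counts in shGDPD5, and is uncertain for the same reason. C3 (ENSG00000125730) had 10, 22 and 15 counts in shCtrl and 12, 10 and 7 counts in shGDPD5. The groups overlapped here too, and its log2 fold change was −0.72 (SE 0.37, 95% interval −1.53 to 0.088, edgeR adjusted p = 0.114). Without control replicate 1, the lowest of the controls, the log2 fold change of C3 was −0.96 with an adjusted p of 0.0489, and without control replicate 2, the highest, it was −0.42 with an adjusted p of 0.429. The intervals of both genes hold 0 as well as decreases larger than that of CD46, so these counts do not show that C3 and C1S were at the same level in the 2 groups.

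**Figure D3:**
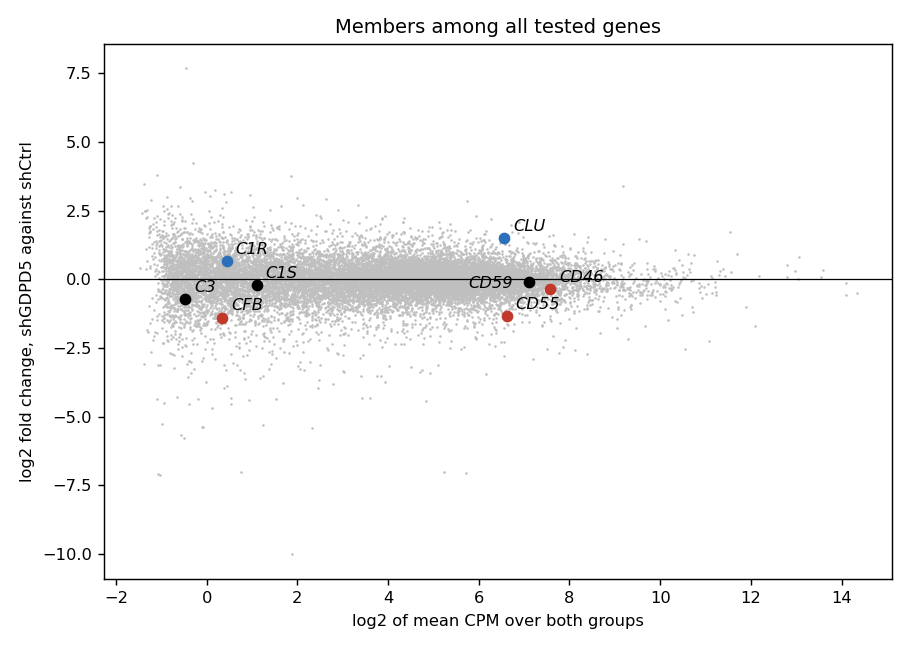
Log2 fold change against the log2 of the mean CPM for all 16755 tested genes (grey), with the 8 tested complement genes in red (lower), blue (higher) or black (not past an adjusted p of 0.05). CD55, CD46, CD59 and CLU lie in the upper part of the range of levels and CFB, C3, C1R and C1S near its lower end, where the spread of all genes is widest.

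To compare levels between genes, CPM were divided by the length of all exons of each gene in kilobases. In the shCtrl libraries the order was CD46 (24.6 ± 1.13 CPM per kb), CD55 (23.8 ± 1.63), CD59 (13.9 ± 0.475) and CLU (7.54 ± 0.853, SD, n = 3 each). CD46 and CD55 overlapped in this scale, and each following pair did not. In the shGDPD5 libraries CLU came first at 21.1 ± 0.649 CPM per kb, followed by CD46 at 19.2 ± 0.249, CD59 at 12.9 ± 0.341 and CD55 at 9.39 ± 0.376, with no overlap between neighbours. CD55 thus went from the second to the fourth place and CLU from the fourth to the first. The 5 low-count genes stayed under 0.5 CPM per kb in both groups. In shCtrl, CFB (0.369) and C1S (0.355) overlapped and lay above C1R (0.179), which overlapped with C3 (0.108), as C3 did with CFI (0.0787). In shGDPD5 the order was C1S (0.308), C1R (0.282), CFB (0.140), C3 (0.0652) and CFI (0.0421), each overlapping with the next.

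CD55 took a smaller share of the membrane regulator transcripts in every shGDPD5 library than in any control. Of the summed level of CD55, CD46 and CD59 per kb, CD55 made up 38.2% ± 0.684 in shCtrl and 22.6% ± 0.971 in shGDPD5 (SD, n = 3 each). The share of CD46 was 39.5% ± 0.346 and 46.3% ± 0.465, and that of CD59 was 22.4% ± 0.383 and 31.1% ± 0.763. The shares of the latter pair were larger in shGDPD5 although neither transcript was higher there, since shares add up to the whole.

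**Figure D4:**
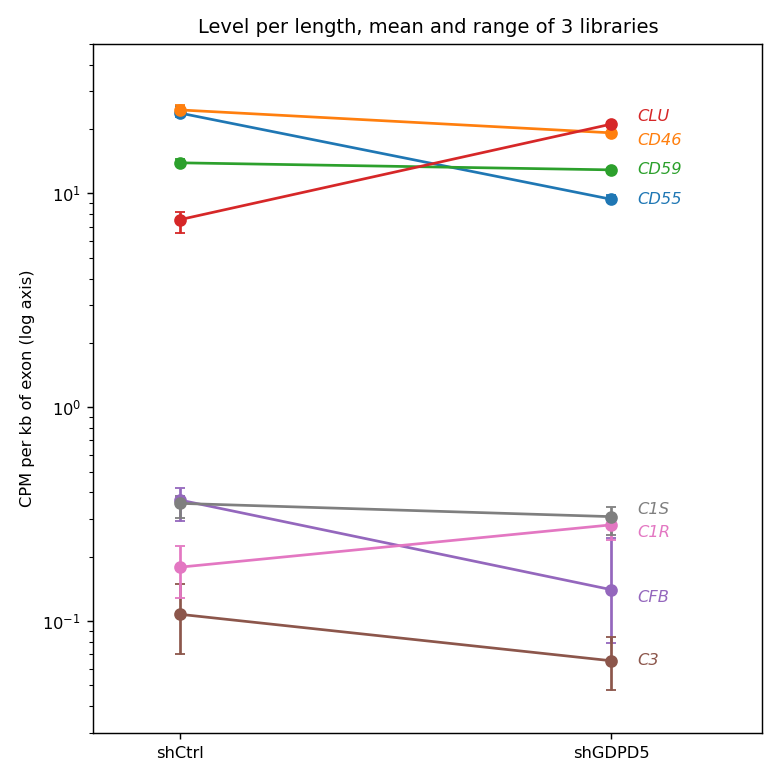
Mean level in CPM per kb of exon on a log axis, shCtrl at the left and shGDPD5 at the right, with bars for the range of 3 libraries. CFI is left out because 1 library was at 0. The line of CD55 (23.8 to 9.39) crosses those of CD59 and CLU (7.54 to 21.1), while the low-count genes lie below 0.5 CPM per kb.

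The expression pattern of CD55 over the 6 libraries was shared by many genes. Among 11432 other tested genes with a symbol and a mean of at least 5 CPM, 676 had a Pearson correlation of log2 CPM with CD55 above 0.99. The highest was that of ITPRIPL2 (r = 0.99992), which went from 208.2 ± 12.7 to 96.6 ± 2.81 CPM. PTGR2 followed (r = 0.99988, 43.5 ± 1.21 to 28.2 ± 0.584 CPM), then the mitophagy receptor gene BNIP3L (r = 0.99981, 116.4 ± 7.89 to 49.7 ± 1.22 CPM), the transcription factor gene KLF9 (r = 0.99976, 43.3 ± 2.98 to 13.0 ± 0.549 CPM) and the ubiquitin-conjugating enzyme gene UBE2J1 (r = 0.99972, 140.7 ± 7.18 to 69.9 ± 1.21 CPM). With 6 libraries in 2 groups these values mostly reflect the difference between the groups, and they are given as a description. EGFR, the receptor that the study links to CD55, fell from 181.7 ± 8.18 to 116.9 ± 1.67 CPM (SD, n = 3 each), a log2 fold change of −0.64 (SE 0.05, edgeR adjusted p = 2.38e-07).

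Most genes of the wider complement system had few or no counts in these cells. Of 49 further complement genes, 16 were at 0 in all 6 libraries, 35 were under 10 counts in all of them and 13 were tested. Those at 0 included the C1q subunit genes C1QA, C1QB and C1QC and the terminal components C6, C8A, C8B and C9. Of the 13 tested genes 6 fell, 3 rose and 4 did not pass the test, with a median log2 fold change of −0.35, where 59.7% of all tested genes were called. Among receptors, ITGAX, the alpha chain of complement receptor 4, had 60, 69 and 77 counts in shCtrl and 10, 16 and 11 in shGDPD5 (log2 fold change −2.50, SE 0.22, edgeR adjusted p = 1.03e-06). ITGB2, the beta chain of that receptor, had 0, 0 and 0 counts in shCtrl and 2, 1 and 2 in shGDPD5 and was not tested. CR2, which binds C3 fragments, fell from 14.8 ± 0.417 to 9.45 ± 0.262 CPM (−0.65, edgeR adjusted p = 3.86e-05). ADGRE5, which encodes CD97, a receptor that binds CD55, moved opposite to CD55 and rose from 59.5 ± 6.71 to 77.0 ± 2.13 CPM (0.37, edgeR adjusted p = 0.000804). C5, which starts the terminal pathway, had 24, 22 and 20 counts in shCtrl and 7, 6 and 9 in shGDPD5 (−1.60, SE 0.31, edgeR adjusted p = 0.000697). It passed the filter through the control libraries alone, since all shGDPD5 libraries were under the minimum of 0.566 CPM. Without control replicate 3, 3 of the 13 genes fell.

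MASP2, a protease of the lectin pathway, rose from 50, 46 and 44 counts to 105, 99 and 103 (1.10, SE 0.14, edgeR adjusted p = 3.11e-05), with no overlap. C1QBP, a largely mitochondrial protein that binds C1q, rose by a small amount, from 253.9 ± 10.1 to 292.2 ± 8.56 CPM (0.20, edgeR adjusted p = 0.00233). The other genes that fell, named after their values were seen, were C4A (−0.81, edgeR adjusted p = 0.0387), C4B (−0.76, 0.0219) and CFD, the protease that cleaves factor B (−0.39, 0.0230). C4A and C4B are near-identical copies between which reads can be split in either way, so their separate values are uncertain. C2, CFP, SERPING1 and C5AR1 did not pass, with log2 fold changes of −0.06, 0.63, −0.35 and −0.16. SERPING1, the inhibitor of C1R and C1S, was at 3.60 ± 0.404 CPM in shCtrl and 2.82 ± 0.198 CPM in shGDPD5 (edgeR adjusted p = 0.0822).

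Because CD55 and CD59 carry a GPI anchor, the genes that build and attach the anchor were examined. All 31 were tested, and 8 fell, 5 rose and 18 did not pass, with a median log2 fold change of −0.044. This made 41.9% called, beside 59.7% of all tested genes. Without control replicate 1, 9 fell and 6 rose. The changes were small, and no gene of the list reached a log2 fold change of 1 in either direction. PIGH (−0.64, edgeR adjusted p = 0.000114) and PIGP (−0.58, 0.000187), subunits of the enzyme of the first step, were lower, as was PIGA, its catalytic subunit (−0.60, 0.000586), which was named after its values were seen. PIGF, which takes part in a late step, fell from 38.3 ± 0.899 to 29.3 ± 2.24 CPM (−0.38, edgeR adjusted p = 0.000327). By contrast GPAA1 (0.53, edgeR adjusted p = 0.000223) and PIGS (0.44, 0.000145), subunits of the transamidase that attaches the anchor to proteins, were higher, and so was PGAP1, which remodels the anchor afterwards (0.69, 1.25e-05).

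Other genes for GPI-anchored proteins changed in both directions. Of 48 genes listed as such, 27 were tested. Of those 12 fell, 4 rose and 11 did not pass, with a median log2 fold change of −0.15. This made 59.3% called, beside 59.7% of all tested genes (30.1% lower and 29.7% higher). Without control replicate 1, 11 fell and 4 rose, and without control replicate 3, 12 fell and 6 rose. NT5E (CD73, the ectoenzyme that makes adenosine) fell from 377.1 ± 23.0 to 59.1 ± 1.18 CPM (SD, n = 3 each), a log2 fold change of −2.67 (SE 0.06, edgeR adjusted p = 6.22e-12). BST2 (tetherin) had a log2 fold change of −2.70 (SE 0.24, edgeR adjusted p = 9.95e-07) at a far lower level, from 6.10 ± 0.848 to 0.939 ± 0.387 CPM. ULBP1, a ligand of the receptor NKG2D (−1.36, edgeR adjusted p = 3.97e-09), the glypican GPC4 (−1.32, 2.42e-08) and the urokinase receptor PLAUR (−1.19, 3.81e-08) fell too, and RAET1L fell by 1.08 on the log2 scale (edgeR adjusted p = 0.0102). The listed genes that rose were RAET1E (1.85, edgeR adjusted p = 0.000299), LYPD6 (1.33, 1.23e-05), EFNA4 (0.91, 0.000163) and CD109 (0.45, 2.34e-05). RAET1E is counted in this list, although its protein crosses the membrane and has no GPI anchor. RAET1E was under the filter minimum of 0.566 CPM in every control library and passed through the shGDPD5 libraries alone, whereas CD109 went from 150.7 ± 11.7 to 206.0 ± 6.94 CPM. ULBP1, RAET1E and RAET1L belong to a family of related sequences, so reads could be split between them.

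Lastly, 12 transcription factor genes known for interferon, NF-kB, C/EBP and heat shock responses, through which complement genes can be regulated, were compared. All 12 were tested, and 7 fell, 0 rose and 5 did not pass, with a median log2 fold change of −0.60. This made 58.3% called, all of them lower, beside 59.7% of all tested genes (30.1% lower and 29.7% higher). Without control replicate 1, 10 fell and 0 rose, and without control replicate 3, 7 fell and 1 rose. CEBPD fell from 7.40, 7.56 and 9.05 CPM to 2.40, 1.23 and 1.69 CPM (−2.18, SE 0.20, edgeR adjusted p = 1.16e-06), and CEBPB from 83.5 ± 8.21 to 32.0 ± 4.39 CPM (−1.39, SE 0.10, 1.03e-07). Both encode C/EBP factors of the acute phase response. IRF9, a subunit of the factor that interferon activates, fell from 30.6 ± 3.46 to 9.55 ± 1.55 CPM (−1.68, edgeR adjusted p = 1.1e-07). The NF-kB subunit gene RELB fell as well (−1.12, edgeR adjusted p = 5.75e-06). IRF1 (−0.86, edgeR adjusted p = 1.99e-06) and NFKB2 (−0.35, 0.000173) also fell, both named after their values were seen, and the 5 that did not pass (STAT2, STAT3, NFKB1, RELA and HSF1) had log2 fold changes of −0.21 to 0.12. No link between these genes and the level of CD55 or CFB was tested.

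**Figure D5:**
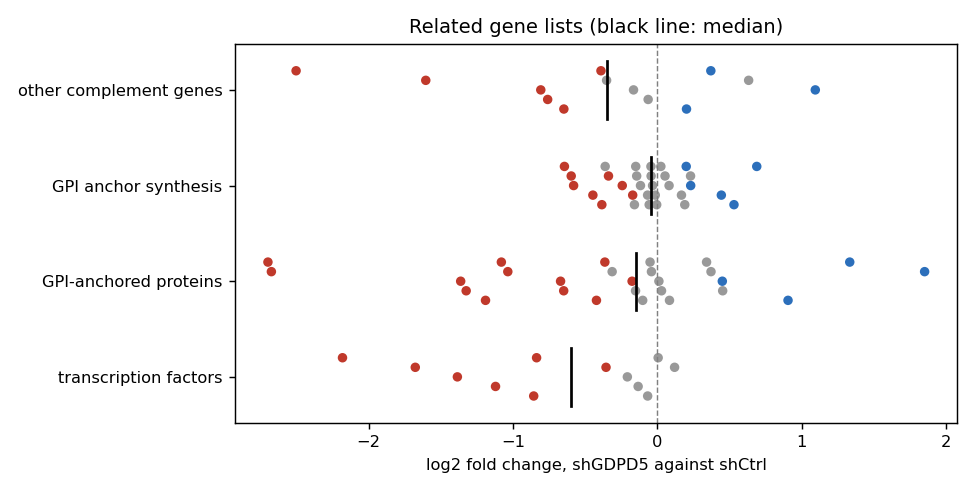
Log2 fold change of each tested gene of the 4 related lists, red for genes that fell, blue for genes that rose and grey for genes that did not pass, with a black line at the median of each list. The medians were −0.35 for the 13 other complement genes, −0.044 for 31 GPI anchor synthesis genes, −0.15 for 27 GPI-anchored protein genes and −0.60 for 12 transcription factor genes.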

How the data were processed

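RNA-seq libraries from 3 shCtrl and 3 shGDPD5 HCT116 samples were grouped by their labels. The values that the authors deposited are estimated counts, 14.5% of them not whole, in rows of 78932 Ensembl identifiers and 370 names from their pipeline. How reads were aligned and counted, whether strand was used and on which genome build is not given in the sources used here. Counts were rounded, genes were filtered with the default filter of edgeR 4.0.16 (minimum count 10) in R 4.3.3, TMM factors were computed, and groups were compared with the quasi-likelihood test and Benjamini-Hochberg adjustment over 16755 genes. Genes with an adjusted p under 0.05 were called. CPM are TMM-scaled. The common biological coefficient of variation was 0.0555. Depths of 16715447 to 18510670 counts limit the precision of genes with a few counts.

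Symbols were matched by Ensembl identifier, gene positions, lengths and exon overlaps were taken from GENCODE release 29, and promoters from RefSeq (GRCh38.p14), where 34788 distinct windows were read. The member genes and the 4 further lists were chosen with earlier results of these data known, and list members were written from general knowledge. Genes named were the 9 members, GDPD5, EGFR, called list genes with a log2 fold change of 1 or more in either direction (at most 8 per list), up to 3 per list and direction with the smallest adjusted p, and the 5 genes most correlated with CD55. Alternatives were RLE and upper quartile factors, no filter, at least 10 counts in every library, DESeq2 1.42.0, limma-voom (limma 3.58.1), the omission of each library in turn, a replicate block, and the thresholds of the study. The test was checked on simulated data. The values of 1 listed gene are not reported here.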

Additional observations from a re-analysis of the deposited data

How the results depend on the processing

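Fits with RLE or upper quartile factors, no filter, at least 10 counts in every library, DESeq2, limma-voom, a replicate block and each library left out kept the calls of CD55 (log2 fold change −1.38 to −1.29), CD46 (−0.39 to −0.32) and CLU (1.39 to 1.54), and none of the 8 tested genes changed direction. CFB was called in each fit that held it (−2.05 to −1.12). CFB and C3 could not be fitted at 10 counts in every library, and CFI could be fitted only without a filter. C1R lost its call without a filter (0.64, adjusted p = 0.0855), with DESeq2 (0.65, 0.175) and with a replicate block (0.66, 0.0720), and ranged from 0.46 to 0.85 with a library left out. CD59 ranged from −0.13 to −0.085 and C3 from −0.96 to −0.42 there, and both were called only without control replicate 1. Hence 1 of the 9 genes rose without a filter, with DESeq2, with the replicate block and at the study's thresholds, 1 to 2 rose and 3 to 5 fell with a library left out, and 5 fell without control replicate 1.

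At the study's thresholds as given above, with edgeR p-values, 902 genes (5.38%) were higher and 1105 (6.6%) lower among all tested genes. The study itself reports fewer genes in each direction. Among the 13 tested wider complement genes 1 was higher and 2 lower, and among 31 GPI anchor synthesis genes 0 and 0. There were 2 and 7 among the 27 tested genes listed for GPI-anchored proteins and 0 and 4 among 12 transcription factors. Wider complement genes that fell numbered 3 with DESeq2 and 3 to 6 with a library left out (3 without control replicate 3), and with a library left out 7 to 10 transcription factors fell (10 without control replicate 1) and 0 to 1 rose. With the replicate block 4792 genes were higher and 4853 lower. Same-numbered libraries shared only a number (correlations of deviations −0.070, −0.052 and −0.041), and apart from C1R the block changed no call of the 9 genes. The cause of these changes was not tested. Depth limits CFI, CFB, C3, C1R and C1S.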

Other observations

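The surroundings of CD55 on chromosome 1 were read after the values of CD55 were known. Within 500 kb on either side, GENCODE release 29 places 34 other genes, of which 15 were at 0 in all libraries and 7 were tested. Of these 7, 3 fell and 2 rose, beside 30.1% lower and 29.7% higher among all tested genes. CR2, which lies 67426 bases away, fell (log2 fold change −0.65, edgeR adjusted p = 3.86e-05), as did CD46 (−0.36, 3.22e-05) and the non-coding gene AL445493.2 (−1.06, 0.000374). YOD1, a deubiquitinase gene, rose (0.70, edgeR adjusted p = 1.69e-06), and so did CD34 (1.26, 0.0157), which had 4, 6 and 4 counts in shCtrl and 10, 15 and 10 in shGDPD5 and passed the filter through the shGDPD5 libraries alone. C1orf116 and PFKFB2 did not pass, with log2 fold changes of −0.17 and −0.15. The complement regulators CR1, CR1L, C4BPA and C4BPB of the same stretch had 0 or 1 counts in each library, so that of the complement genes there only CD55, CD46 and CR2 could be compared.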
